A study of Triticum aestivum with 58 samples.

Results

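Root transcriptomes of 5 bread wheat (Triticum aestivum) cultivars released in Pakistan from 1911 to 1958, namely T9, C518, C217, C271 and Dirk, were compared with those of 19 cultivars released from 1965 onwards. Seedlings of all 24 cultivars were grown in peat moss without any treatment, and root and leaf tissues were collected 2 weeks after germination. The 5 older cultivars gave 14 root libraries and the 19 later cultivars 55 root libraries. The counts of the replicate libraries were summed per cultivar, so that the cultivar was the sample (n = 5 and n = 19). Of the 28 cultivars with root counts, Gabo, S-24, Sonalika and Zincol-2016 were left out because they are not in the study's dated list. T9 is a landrace, the cross of C518 includes T9, and the pedigree of Dirk includes C271 and a dwarf parent. The 5 older cultivars are therefore not independent lines. The later group is not free of older parentage either, since C271 is a parent of Parwaz-94. The deposited counts do not show which height alleles a cultivar carries.

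Bread wheat is a hexaploid that carries the A, B and D sub-genomes, and most genes exist as homoeologues, one on each sub-genome. The last character pair of a listed gene name below gives the chromosome, so that SOR1_2A, SOR1_2B and SOR1_2D are homoeologues. Root architecture is shaped by auxin transport and response, by factors that start lateral and crown roots, by proteins that loosen the cell wall and by genes for root hair growth and root angle. Transcript levels in a whole root are those of a mixture of cells, in which fewer cells of a type and less RNA per cell cannot be told apart. The replicate libraries were sown separately in triplicate, but the sources do not say how many plants each held.

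Library depth differed between the groups. The older libraries held between 9890387 and 11126031 counts on genes (median of 10783275) and the later ones between 8421545 and 11212584 (median of 9390843). Only 16 of the 55 later libraries reached the depth of the shallowest older library, and only Maxipak-65, Pothowar-70, Pak-81, Seher-2006 and Pakistan-13 reached it as a mean over their libraries. The tissue label was checked on marker genes. The LRA1 genes, auxin efflux carriers of the root type, were between 6.24 and 16.5 CPM (counts scaled to the library total) in the older root samples and at most 0.211 CPM in any leaf sample. In the later root samples LRA1_7A and LRA1_7D were at 3.18 CPM or more, whereas LRA1_7B was at 0 tpm in Punjab-96 and 0.0502 tpm in Pakistan-13 (tpm is scaled to gene length and library total). PpD_2A, a photoperiod gene, was at most 0.156 CPM in root and at least 4.05 CPM in leaf.

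Names and libraries did not always go together. Libraries were compared on 792 on/off genes, which are silent in some libraries and clearly expressed in others, and a share of at least 97% in the same state was taken as a match. Of the 69 root libraries, 42 matched another library of their own name, 11 matched only a library of another name and 16 matched neither. Among the 14 older libraries these numbers were 7, 3 and 4. Replicate 1 of C217 matched Pak-81 (99.4%), replicate 2 of C217 matched Chakwal-86 (100%) and replicate 3 of C271 matched C518 (97.7%). Some of the 42 libraries that matched their own name also matched another. Replicate 1 of Chakwal-50 shared 99.5% with NARC-2009, replicate 1 of Chakwal-97 99.9% with Ujala-2016 and replicate 1 of Punjab-96 100% with Pothowar-70. The later samples may therefore not be independent of each other either. The libraries of T9, C518 and C271 shared between 87.5% and 97.7% of the states with each other (median of 91.4% over 27 pairs), whereas Dirk shared 69.8% with T9. Which of 2 matching libraries carries the wrong name, if any, cannot be told apart from the counts. The counts of calls that C217 enters are also given without these libraries.

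The number of genes detected did not separate the groups. At 1 CPM or more, 52447.4 ± 527.9 (SD, n = 5) genes were detected in the older and 52188.3 ± 924.0 (SD, n = 19) in the later cultivars (exact permutation test, two-sided, p = 0.584).

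A small share of the root transcriptome differed between the eras. Of 65921 genes tested, 2093 (3.18%) passed an adjusted p of 0.1 in edgeR's quasi-likelihood test with Benjamini-Hochberg adjustment, of which 1152 (1.75%) were higher and 941 (1.43%) lower in the older cultivars. Most changes were moderate, with a median log2 fold change of 0.99 among the higher and -1.08 among the lower genes, while the median over all genes tested was -0.004. In total 572 of the higher and 508 of the lower genes changed by at least 2-fold, and 392 of all called genes by at least 4-fold. At an adjusted p of 0.05, 757 genes (1.15%) remained. The ranges of the 5 and the 19 cultivars did not overlap in 53 genes (0.0804% of those tested), 30 higher and 23 lower in the older cultivars, and 50 of these genes were among the called ones.

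Calls fell on all chromosomes. On sub-genome A, 1.47% of the tested genes were higher and 1.55% lower, on sub-genome B 2.14% and 1.67%, and on sub-genome D 1.65% and 0.993%. Chromosome 3B held the largest share of called genes among the 21 chromosomes (4.89%, 99 higher and 67 lower) and 4D the smallest (1.92%). Chromosomes 2D and 2A leaned in opposite directions, with 105 higher and 37 lower genes on 2D and 44 higher and 97 lower genes on 2A.

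The calls rested mostly on T9, C518 and C271. Without T9, C518 or C271 in turn, 596, 293 and 391 genes were called, but 2322 without C217 and 2907 without Dirk. Each cultivar was also left out of the fit, and its own levels were then read for the genes called without it, as the share of these genes in which it lay nearer the mean of the older than of the later cultivars. This share was 76.0% for T9, 94.2% for C518 and 82.8% for C271. It was only 37.5% for C217 and 33.1% for Dirk, within the range of the later cultivars, which was 5.55% to 61.0% with a median of 18.8%. T9, C518 and C271 shared a median of 91.4% of on/off states with each other. Each of them was thus not independent of those kept in the fit when it was left out. The shares were also read on unlike sets of genes.

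C217 was not uniform. Its replicate 3 lay on the older side in 73.4% of the higher and 59.3% of the lower genes. Replicates 1 and 2, which match later cultivars by on/off genes, did so in 29.7% and 29.5% of the higher and in 26.7% and 25.8% of the lower genes. When all libraries matching only another name were left out of the sums, which left 5 older and 19 later cultivars, 3043 genes were called, 1452 higher and 1591 lower, and 1808 of them were also among the 2093. In the same setting 64 genes of the 2D stretch described below were higher and 36 of the 2A stretch lower.

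Depth moved with the same quantity. Among the later cultivars, the share was highest in Maxipak-65 (61.0%), the first of them to be released, followed by Seher-2006 (49.8%), Chakwal-86 (35.3%) and Pakistan-13 (33.4%), of which only Chakwal-86 is not among the 5 deep later cultivars. Over those 5 the share ran from 17.5% to 61.0% (median of 33.4%), and over the 14 shallower cultivars from 5.55% to 35.3% (median of 16.8%). Against the 5 deep later cultivars alone no gene was called by edgeR (lowest adjusted p = 0.589), while 5231 genes were under an unadjusted p of 0.05. In this fit the genes of the full comparison had a median log2 fold change of 0.71 (higher) and -0.76 (lower). It held 5 instead of 19 later cultivars. Replicate 3 of Pak-81 and replicate 2 of Seher-2006, both in this fit, matched replicate 1 of C217 (99.4% and 98.1%). Depth, group size and shared on/off states therefore cannot be told apart in it. The libraries of Maxipak-65 did not match each other by on/off genes (at most 81.8%). Replicates 1 and 2 lay on the older side in 75.2% and 75.8% of the higher genes and replicate 3 in 14.9%. These libraries held 11212584, 10999460 and 10868321 counts. Replicates 1 and 2 shared up to 94% and 93.2% of the on/off states with a library of T9, without reaching a match. The part of depth in the 2093 calls was not tested, because few later cultivars were sequenced as deeply as the older ones.

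**Figure D1:**
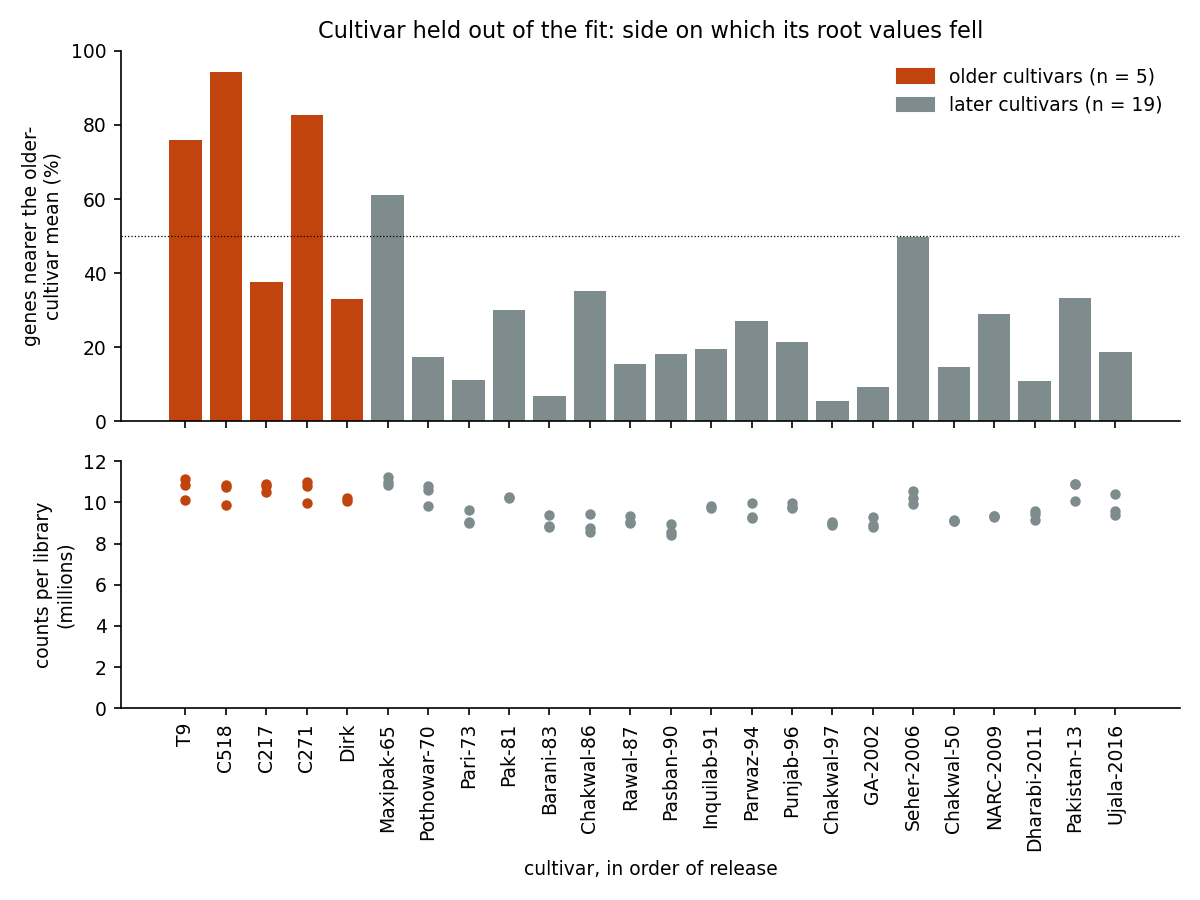
Share of called root genes in which a cultivar left out of the fit lay nearer the mean of the older cultivars (top, percent) and the counts on genes in each of its root libraries (bottom), in order of release. T9, C518 and C271 lie at 76.0% to 94.2%, C217 and Dirk at 37.5% and 33.1%, and the later cultivars between 5.55% and 61.0%; the dotted line marks equal shares.

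The genes of smallest p changed on many chromosomes. Among the 12 higher genes that were named by rank, which lay on 8 chromosomes and, for 1 gene, on unplaced sequence, the log2 fold change ran from 1.94 to 6.87 (edgeR, adjusted p of at most 0.0017). Among the 12 lower genes, on 8 chromosomes and, for 2 genes, on unplaced sequence, the fall ran from 0.62 to 2.12 on the log2 scale (edgeR, adjusted p of at most 0.00896). In 11 of the 12 higher genes C217 was nearer the median of the later than the mean of the older cultivars, as was Dirk in 6 of the 12. Among the 12 lower genes this held for C217 in 6 and for Dirk in 0. T9, C518 and C271 were on the older side in all 24 genes. The choice of genes by smallest p favours this, since the calls rested mostly on these cultivars. The files give no names or descriptions for these genes, so the leading pair in each direction is given by identifier.

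TraesCS4A02G053500, on chromosome 4A, was at 58.0 tpm in T9, 93.1 in C518, 42.7 in C217, 91.2 in C271 and 62.3 in Dirk. In the 19 later cultivars it was between 9.83 and 34.8 tpm, with a median of 16.3. Every older cultivar thus lay above every later one, and the highest later value was that of Maxipak-65. The means were 69.5 ± 22 (SD, n = 5) and 17.5 ± 6.04 tpm (SD, n = 19), with a log2 fold change of 2.0 (SE 0.21, edgeR adjusted p = 5.14e-05). Single libraries overlapped, at 23.8 to 105 tpm in the older and 7.51 to 44.7 tpm in the later group.

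TraesCS6B02G386600, on chromosome 6B, was at 11.8 tpm in T9, 11.3 in C518, 4.63 in C217, 13.1 in C271 and 11.4 in Dirk. The later cultivars were between 1.16 and 6.31 tpm, with a median of 1.99. C217 lay below Maxipak-65, the highest later cultivar, and its replicates were at 2.77, 2.53 and 8.59 tpm, the first pair being the libraries that match later cultivars. The log2 fold change was 2.25 (SE 0.24, edgeR adjusted p = 5.14e-05), and 2.32 (edgeR adjusted p = 7.66e-06) without the libraries that matched only another name.

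On the lower side, TraesCS7B02G473600, on chromosome 7B, was between 0.643 and 1.64 tpm in the older and between 1.85 and 3.80 tpm in the later cultivars. The means were 1.02 ± 0.416 (SD, n = 5) and 2.73 ± 0.569 tpm (SD, n = 19), without overlap of cultivars, and the log2 fold change was -1.40 (SE 0.19, edgeR adjusted p = 0.00132). Its single libraries overlapped, at 0.501 to 2.15 tpm in the older and 0.555 to 4.29 tpm in the later group. TraesCS1A02G152900, on chromosome 1A, was between 0.299 and 0.893 tpm in the older and between 0.748 and 1.69 tpm in the later cultivars. Here the ranges overlapped through a single older cultivar, and the log2 fold change was -1.34 (SE 0.20, edgeR adjusted p = 0.0017). All 4 genes kept their direction under every alternative that was run. They lost the call only against the 5 deep later cultivars and, except for TraesCS4A02G053500, against the 7 earliest later ones.

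**Figure D2:**
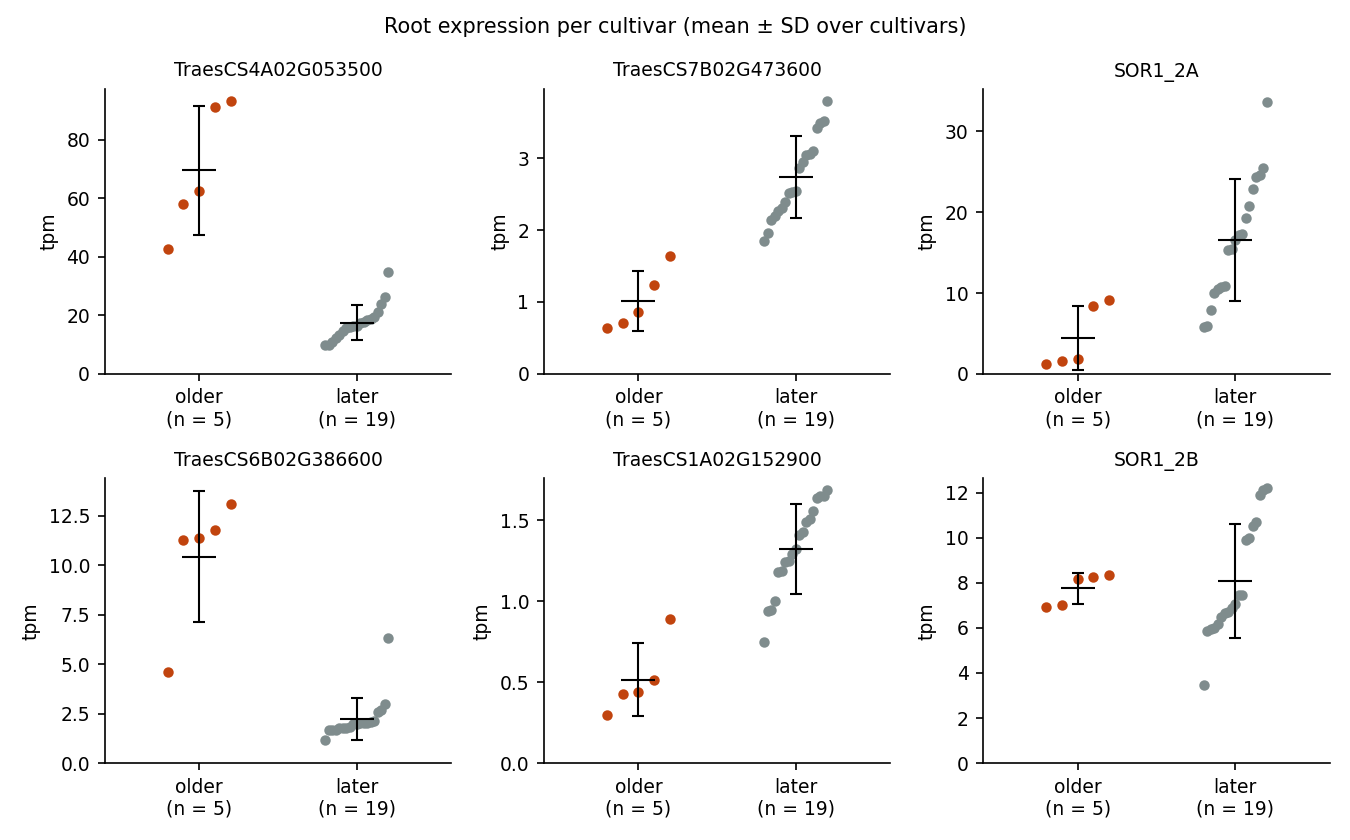
Root expression in tpm of the leading genes in each direction and of SOR1_2A and SOR1_2B, with a point per cultivar (sorted within a group), a horizontal line for the mean and bars for the SD over 5 older and 19 later cultivars. The groups are apart in TraesCS4A02G053500 and TraesCS7B02G473600, overlap through 1 older cultivar in TraesCS6B02G386600 and TraesCS1A02G152900 and through 2 in SOR1_2A, and overlap widely in SOR1_2B.

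A subset of the lower genes was at or near 0 in the older cultivars. In 25 lower genes, at most 3 counts were found over all 14 older libraries together. Such genes could pass the filter on low counts only through the later cultivars. Their direction was therefore set by this choice, and the numbers are a description. These genes lay on 10 chromosome labels (the unplaced sequence among them), and some were close neighbours, such as genes 930 and 931 of 2A. Each had more than 3 counts in 11 to 16 of the 19 later cultivars, so none was present in all of them. For the 8 genes with no count at all, the level in the later cultivars was at least 17.6-fold to 382-fold higher (median of 66.0-fold) than the 0.0203 CPM that 3 counts over the whole older group would give.

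No gene showed the reverse pattern in full, since none of the higher genes had 3 or fewer counts over all 55 later libraries together. This limit is stricter than the same limit over the 14 older libraries, so the numbers are not like for like. There were 21 higher genes with at most 3 counts in at least 17 of the later cultivars. All 21 had more than 3 counts in T9, C518 and C271, 19 had so in C217 and only 5 in Dirk. Such genes could pass the filter on low counts mainly through the older cultivars. Their presence in most of these cultivars follows from this choice, and the numbers are a description.

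Called genes were not evenly spread along the chromosomes. Windows of 30 successive tested genes were counted, in the order of the gene numbers in the identifiers, and the 5 windows with the most calls in one direction all lay near the ends of chromosomes 2D and 2A. In genes 5674 to 5736 of 2D, 21 of the 30 were higher in the older cultivars and 1 was lower, with a median log2 fold change of 2.57. The next windows of 2D, genes 5758 to 5832 and 5886 to 5959, held 15 and 16 higher genes with medians of 1.95 and 2.12. On 2A, genes 5729 to 5777 and 5778 to 5844 held 16 and 11 lower genes with medians of -1.01 and -0.76.

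Taken as whole stretches, genes 5674 to 5959 of 2D comprised 122 tested genes, of which 60 were higher and 1 lower (median log2 fold change of 2.4). They held 57.1% of the higher calls of the chromosome. Genes 5729 to 5844 of 2A comprised 60 tested genes, of which 27 were lower and none higher (median of -0.89), or 27.8% of the lower calls of that chromosome. The limits of the stretches are those of the windows and not of the changes. Of the 35 tested genes beyond the 2D stretch, 6 were higher, with a median of 0.64, and of the 48 beyond the 2A stretch 1 was higher and none lower, with a median of -0.12. Both stretches were chosen for their calls, so these counts are a description.

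**Figure D3:**
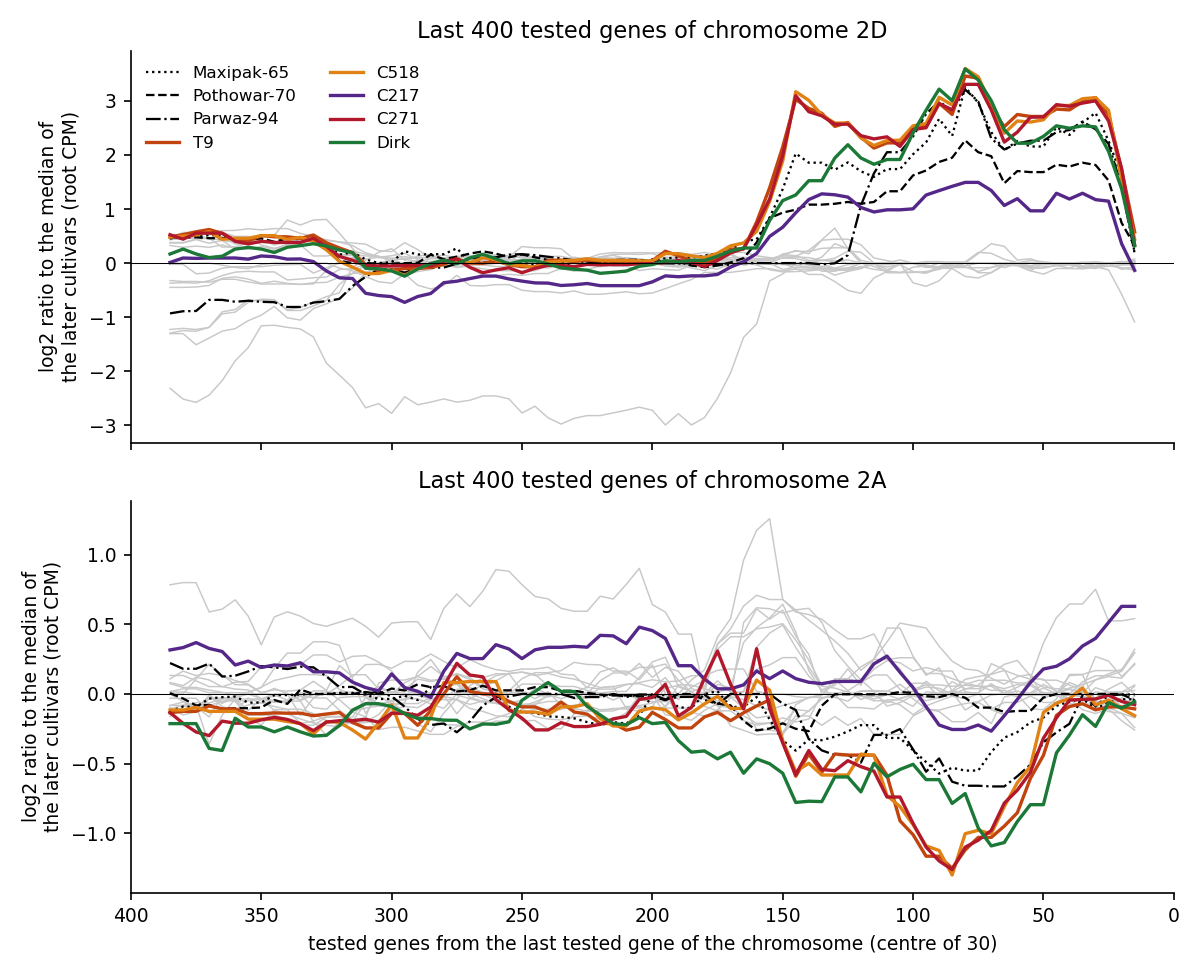
Median log2 ratio of root CPM to the median of the later cultivars in sliding windows of 30 tested genes, over the last 400 tested genes of chromosomes 2D (top) and 2A (bottom). Older cultivars are drawn in colour, Maxipak-65, Pothowar-70 and Parwaz-94 in black and the other 16 later cultivars in grey; a plateau on 2D faces a trough on 2A in T9, C518, C271 and Dirk.

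The summed level of the 122 genes of 2D was 2390 CPM in T9, 2360 in C518, 898 in C217, 2430 in C271 and 2490 in Dirk. Of the later cultivars, 16 lay between 194 and 299 CPM, and only Maxipak-65 (1740 CPM), Pothowar-70 (1100 CPM) and Parwaz-94 (2030 CPM) lay above them. The means were 2110 ± 681 (SD, n = 5) and 461 ± 542 CPM (SD, n = 19). The 60 genes of 2A summed to 1170 CPM in T9, 1080 in C518, 2700 in C217, 1180 in C271 and 1470 in Dirk, against 1820 to 3920 CPM (median of 2940) in the later cultivars. Older cultivars that were high at the 2D stretch were thus low at the 2A stretch, and C217 alone among the 5 lay in the range of the later cultivars at 2A.

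Levels at both stretches together differed less, which follows from choosing the 2D stretch for higher and the 2A stretch for lower genes. The genes of the stretches were not paired as homoeologues. Their sum was 3640 ± 197 CPM (SD, n = 5; range of 3450 to 3970) in the older and 3410 ± 448 CPM (SD, n = 19; range of 2810 to 4220) in the later cultivars, and the ranges overlapped. The reads were short and single-end and may fit more than one homoeologue, and the treatment of such reads is not given in the sources used here. Its part in the opposite changes on 2D and 2A was not tested.

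Most single libraries were either high or low at the 2D stretch. Of the 14 older libraries, 12 were above 1000 CPM, between 2100 and 2630, and the other 2 were replicates 1 and 2 of C217, at 277 and 294 CPM. Replicate 3 of C217 was at 2100 CPM. Of the 55 later libraries, 6 were above 1000 CPM: replicates 1 and 2 of Maxipak-65 at 2560 and 2370 CPM (replicate 3 was at 247 CPM), replicate 3 of Pothowar-70 at 2360 CPM (the others at 822 and 226 CPM) and the 3 replicates of Parwaz-94 at 1280, 2510 and 2360 CPM. The intermediate sums of C217 and Maxipak-65 therefore came from unlike libraries of 1 name. Replicate 1 of Pothowar-70 and replicate 1 of Parwaz-94 were themselves intermediate, at 822 and 1280 CPM.

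Parwaz-94, which has C271 as a parent, was high over a part of the stretch only. Its median log2 ratio to the later cultivars was 0.00 in genes 5674 to 5736, and 2.12 and 2.26 in the other windows of 2D. In Dirk the first window was also lower (1.37) than the others (2.01 and 2.34), while T9, C518 and C271 were between 2.80 and 3.01 there. Of the 5 deep later cultivars, Maxipak-65 and Pothowar-70 were high at the whole stretch and Pak-81, Seher-2006 and Pakistan-13 low (260, 295 and 212 CPM), and of the 14 shallower ones Parwaz-94 was high. The part of depth at this stretch was not tested.

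**Figure D4:**
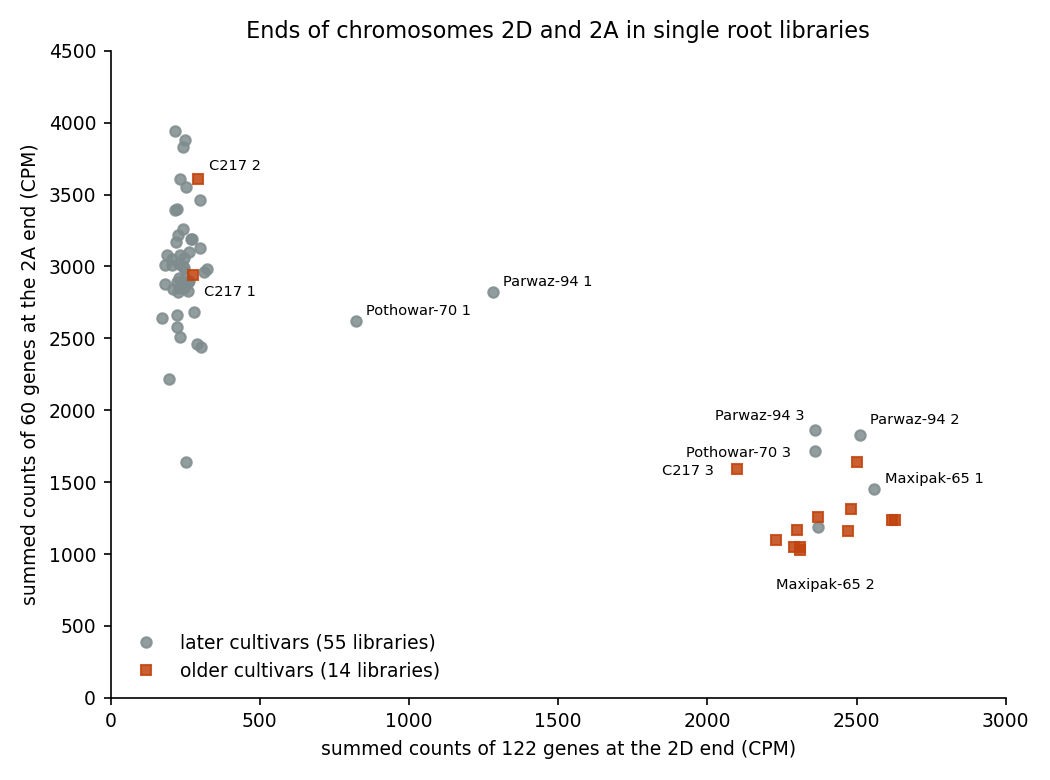
Summed CPM of 122 genes at the 2D stretch (x axis) and of 60 genes at the 2A stretch (y axis) in each root library, squares for the 14 older and circles for the 55 later libraries, with the libraries that lie apart from their group named by cultivar and replicate. Of the older libraries 12 lie at the lower right, and replicates 1 and 2 of C217 lie among the later libraries.

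The study had picked 95 wheat homoeologues of root architecture genes from cereals, and 83 of them could be tested in root. Among the 83, none was called higher and 1 was called lower (1.2%, against 3.18% of all genes), at a median log2 fold change of 0.03 against -0.004 over all genes. An unadjusted p under 0.05 was reached by 24 of them (28.9%), against 15.6% of all genes tested. The fold change was positive for 45 genes and negative for 37. Of the 12 genes that were not tested for want of counts, GNA1_5A, PSTOL1_5A, VP1_3B and VP1_3D were at 0 in all 24 cultivars.

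Among genes of root angle and gravitropism, SOR1_2A (TraesCS2A02G045100) was the listed gene that passed the threshold. SOR1 encodes an E3 ubiquitin ligase that in rice takes part in the gravitropism of roots. Its level was 1.21 tpm in T9, 1.80 in C518, 8.37 in C217, 1.63 in C271 and 9.13 in Dirk, a mean of 4.43 ± 3.96 tpm (SD, n = 5). The later cultivars were between 5.76 and 33.6 tpm, with a mean of 16.6 ± 7.51 tpm (SD, n = 19). T9, C518 and C271 lay below every later cultivar, whereas C217 and Dirk lay within the later range. The log2 fold change was -1.87 (SE 0.48, edgeR adjusted p = 0.054).

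The call of SOR1_2A depended on the cultivars and libraries used. It was lost without T9 (adjusted p = 0.149), C518 (0.201) or C271 (0.18), without replicate 3 (0.127) and against the 5 deep later cultivars (0.62, at a log2 fold change of -1.29), all in edgeR, and was present in 31 of 38 alternatives. The other losses were against the 7 earliest later cultivars (0.232) and with libraries that match their own name only (0.106), at log2 fold changes of -1.93 and -2.16. Its homoeologues were near 0, with log2 fold changes of -0.04 for SOR1_2B (7.75 against 8.08 tpm) and 0.12 for SOR1_2D (5.14 against 4.81 tpm). The difference between homoeologues was not tested. The 30 tested genes next to SOR1_2A on chromosome 2A had a median log2 fold change of -0.84, and 1 of them was called. DRO1_5B, named after a rice gene for steeper root growth, was at -0.67 (edgeR adjusted p = 0.261).

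Of the genes for cell wall loosening and glycosylation, 17 were tested and none was called, but 16 of the 17 fold changes were positive. Most of these genes are homoeologues of each other, so their signs are not separate observations. Expansins let cell walls extend during growth. The largest values were those of EXPB1_2D (log2 fold change of 1.30, edgeR adjusted p = 0.14), with EXPB1_2A and EXPB1_2B at 0.94 and 0.87 (0.307 and 0.372), and of the 3 TaEXPA2 homoeologues, at 0.88, 0.97 and 0.94 (edgeR adjusted p = 0.193, 0.252 and 0.113 for 3A, 3B and 3D). TaEXPA2_3D was between 16.3 and 31.7 tpm in the older and between 2.13 and 23.0 tpm in the later cultivars, so that the ranges overlapped. The sizes depended on the setting. Over all alternatives the log2 fold change ran from 0.0 to 1.54 for EXPB1_2A, -0.07 to 1.55 for EXPB1_2B and 0.36 to 1.62 for EXPB1_2D. For TaEXPA2_3A, TaEXPA2_3B and TaEXPA2_3D it ran from 0.29 to 1.2, 0.48 to 1.32 and 0.31 to 1.14. EXPA10 and DGL1, on the other hand, were within 0.31 of 0 on the log2 scale.

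The genes of abscisic acid signalling and of the NAC transcription factors, which respond to drought and other stress, were split. The 3 TaNAC69 homoeologues were at 0.78, 0.60 and 0.79 (edgeR adjusted p = 0.129, 0.248 and 0.115), and those of ABIL2, described as a protein phosphatase 2C, were at 0.46, 0.44 and 0.55. In contrast, the 3 SNAC1 homoeologues were at -0.62, -0.59 and -0.70. None of the 9 was called. Homoeologues of a family had the same sign in each case.

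Auxin genes were mostly close to 0. The median log2 fold change over the 22 tested genes of auxin signalling, synthesis and transport was -0.08 and the lowest edgeR adjusted p 0.169, for CRL4_4B (-0.22), which encodes a GNOM-like factor of auxin carrier trafficking. The auxin response factors ARF4_3A, ARF4_3B and ARF4_3D were at -0.06, -0.30 and -0.10.

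Receptors and organ formation genes were also without calls. The BRi1 brassinosteroid receptors were within 0.16 of 0, and of the SERK1 co-receptors only SERK1_2B departed from 0, at -0.56 (edgeR adjusted p = 0.122). SERK1_2B was at 8.14 tpm in T9, 8.90 in C518 and 9.81 in C271, below every later cultivar (10.9 to 24.5 tpm), but at 17.9 in C217 and 20.3 in Dirk. For crown and lateral roots, the LBD16 genes, activators of lateral root formation in Arabidopsis, were at 0.52, 0.60 and 0.76 (lowest edgeR adjusted p = 0.168), while WOX11 and TaMOR were within 0.19 of 0.

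Of the 14 tested root hair genes, 9 had negative and 5 positive values, and none was called. RTH3, described as a COBRA-like protein of the cell wall, was at -0.86, -0.80 and -0.83 (edgeR adjusted p of at least 0.326), and RHD2, an NADPH oxidase that makes the reactive oxygen of hair tips, at -0.58, -1.16 and -0.87. The spread among cultivars was wide: RTH3_4D ran from 9.63 to 40.0 tpm in the older and from 4.41 to 75.7 tpm in the later cultivars. The positive values were those of RTH5_3A and RTH5_3B, described as respiratory burst oxidases (0.29 and 0.46, edgeR adjusted p = 0.291 and 0.309), RHT5_3D (0.33) and the root hair factor genes TaRSL4_2A and TaRSL4_2D (0.21 and 0.47).

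PpD_U, a photoperiod gene on an unplaced scaffold, was at 0 tpm in T9 and C271, 0.0148 in C518, 0.300 in C217 and 0.0229 in Dirk, against 0.0578 to 0.475 tpm in the later cultivars. With all libraries the log2 fold change was -1.75 (edgeR adjusted p = 0.172). Leaving out the libraries that matched only another name gave -3.61 (edgeR adjusted p = 0.00725), and called GNA1_5B (0.84), LBD16_4D (0.97), SERK1_2B (-0.72) and TaEXPA2_3D (1.14) as well, beside SOR1_2A (-1.89). This setting kept C217 through its replicate 3 and was chosen after the data were seen. The levels of PpD_U in root are far below those in leaf (20.9 to 114 CPM).

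**Figure D5:**
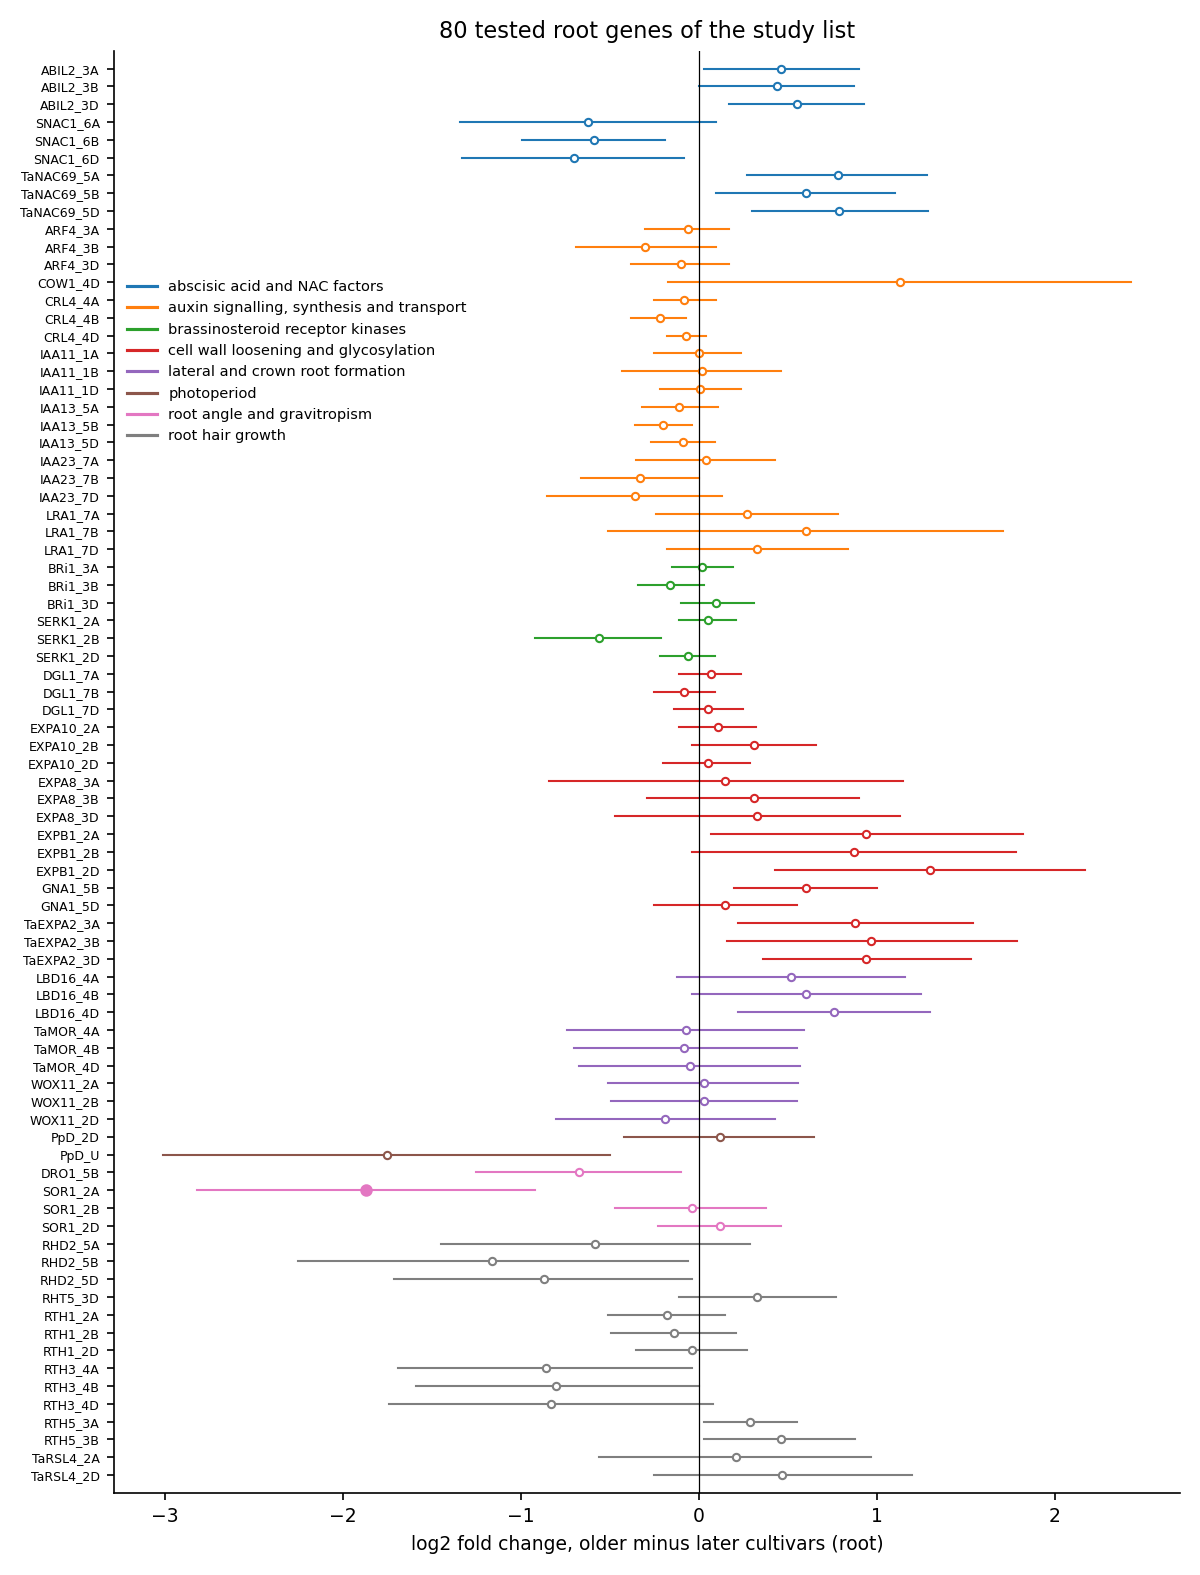
Log2 fold change (older minus later cultivars, root) of 80 of the 83 tested genes of the study's list, coloured by role, with bars for the 95% confidence interval of the fit. The filled point, SOR1_2A, is the gene past an adjusted p of 0.1, and 16 of the 17 cell wall genes lie to the right of 0.

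The same comparison in leaf called none of 56787 genes (edgeR, 0%), with 5725 under an unadjusted p of 0.05 and 352 called by DESeq2. Of the genes higher in root, 819 were tested in leaf, and 35.8% had the same sign there (median log2 fold change of -0.09). Of the genes lower in root, 719 were tested, and 51.7% had the same sign (median of -0.01). The 2D stretch ran from 74.8 to 1420 CPM in the older and from 54.6 to 1480 CPM in the later leaf libraries. However, none of the 13 older leaf libraries matched another leaf library of its own name by on/off genes and 9 matched only another name. Of the 52 later leaf libraries with another of their name, 4 matched their own name and 25 only another. The leaf values of both groups therefore do not follow the cultivar names, and the difference between the tissues was not tested.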

How the data were processed

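The deposited files hold raw counts of reads per gene and tpm values, one library per column or file, which the authors made from oligo(dT)-primed single-end libraries sequenced on a BGISEQ-500, with HISAT2 for mapping and featureCounts for counting. All 69 deposited tpm files used here could be recomputed from the deposited counts and gene lengths, to within 0.1%. Noncoding genes (12853, with 0.0158% of the counts) were left out, which left 107891 genes. The columns of the authors' own comparisons were not used.

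Counts were summed over the libraries of a cultivar and tested with edgeR 4.0.16 in R 4.3.3 (TMM, filterByExpr, trended dispersion, quasi-likelihood F-test), 5 older against 19 later cultivars with no covariate, with Benjamini-Hochberg adjustment over all genes tested and the study's threshold of 0.1. TMM factors ran from 0.90 to 1.08 and the common dispersion was 0.185. SE is that of the log2 fold change, from the fit. The tpm of a cultivar is the mean over its libraries as deposited, and CPM is scaled to the counts on genes. A count of 0 allows up to 3 counts, which covers counting error only.

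On/off genes were below 0.15 or above 2 CPM in all but 5% of libraries. Named genes were the 12 of smallest p in each direction at least 20 gene numbers apart, every called gene of the study's list, and the 5 windows of 30 tested genes with the most calls. As no description matched the identifiers, 2 unnamed identifiers are printed per direction, windows are given by gene numbers only, and no lists by gene description and no sequences were used. The members and lists were chosen with earlier results of these data known. Alternatives were DESeq2 1.42.0, limma 3.58.1 on log2(tpm + 1), log2(tpm + 0.1) and voom, other filters and thresholds, parts of the later group, and libraries or cultivars left out; 2 of them, without the libraries matching only another name and against deep later cultivars, were chosen after seeing the data. One family of the study's list is counted in the totals and not reported here by name. The scripts were tested on simulated data. Figures used matplotlib 3.10.9.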

Additional observations from a re-analysis of the deposited data

Results flagged for a closer look

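Among the older cultivars, 53 values were checked for a single cultivar far from the other 4 (gap to the nearest over the range above 0.71, which chance passes in about 1 of 20 groups). C217 stood apart at TraesCS6B02G386600 (4.63 tpm, the others 11.3 to 13.1), PpD_U (0.300 tpm, the others 0 to 0.0229), the 2D stretch (898 CPM, the others 2360 to 2490), its windows of genes 5886 to 5959 (median log2 ratio of 0.97, the others 2.34 to 2.71) and 5758 to 5832 (0.98, the others 2.01 to 2.37), and the 2A stretch (2700 CPM, the others 1080 to 1470). In each of these the value of C217 lay on the side of the later cultivars, and 2 of its 3 libraries match later cultivars by on/off genes.

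Single listed genes set other cultivars apart. EXPB1_2A was at 1.80 tpm in Dirk (the others 0.737 to 1.00), PpD_2D at 0.996 tpm in Dirk (0.493 to 0.636), LBD16_4A at 2.40 tpm in C271 (1.09 to 1.40) and SNAC1_6A at 29.5 tpm in T9 (6.66 to 12.6).

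Outside the comparison, Gabo reached 2240 CPM at the 2D stretch, above the highest later cultivar (2030 CPM). Sonalika was at 1950 CPM, S-24 at 955 CPM and Zincol-2016 at 257 CPM.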

How the results depend on the processing

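The count of called root genes (2093, 1152 higher and 941 lower) became 4535 with DESeq2 (1806 higher and 2729 lower), 3469 and 3300 with limma on log2(tpm + 1) and log2(tpm + 0.1), 6443 with limma voom on single libraries (3907 higher and 2536 lower), 32 against the 7 earliest and 1660 against the 12 most recent later cultivars, 878 with libraries that match their own name only (3 older and 14 later cultivars), 757 at an adjusted p of 0.05, 1080 with a log2 fold change of at least 1 and 0 against the 5 deep later cultivars. Leaving out single cultivars or replicates gave 266 (without replicate 3) to 2907 genes. The 60 calls of the 2D stretch became 24 with at least 10 counts in every sample, 99 and 98 with limma on tpm, 106 with voom, 33 at 0.05, 0 against the 7 earliest, 66 against the 12 most recent and 0 against the deep later cultivars, and 16 to 79 with single cultivars or replicates left out. The 27 of the 2A stretch became 14 at 0.05, 0 against the 7 earliest, 20 against the 12 most recent and 0 against the deep later cultivars, and 5 to 35 with single cultivars or replicates left out. In leaf, 0 calls became 352 with DESeq2 (73 higher and 279 lower), 18 without a filter and 0 to 1 without single cultivars. The difference in detected genes (259.1 more in the older cultivars) reversed at 0.1 CPM (-798.3, exact permutation p = 0.089) and was 303.2 at 5 CPM (p = 0.457) and 118.9 to 477.2 without single cultivars. Of 929 alternative values of the 24 genes named by rank and SOR1_2A, 874 stayed called in the same direction, 55 were no longer called (24 of them against the 7 earliest and 25 against the deep later cultivars) and 0 reversed. The cause was not tested. No paired analysis was possible because each cultivar belongs to 1 group only and enters once. The lower depth of the later libraries limits what can be said of genes with few counts.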
